A study of Mus musculus with 4 samples.

Results

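Granins are acidic secretory proteins that help dense-core vesicles form and that are themselves cut into peptides. The genes described here were the granins Chga, Chgb, Scg2, Scg3, Scg5 and Vgf, the prohormone-processing enzymes Pcsk1, Pcsk2 and Cpe, and the dense-core vesicle membrane protein gene Ptprn. They were chosen by name, with earlier results of these data known. All 10 were found by symbol among the 55341 genes counted in each library and passed the filter on low counts. RNA was taken from cerebellar tissue of mice at postnatal day 14, with 2 WT libraries (Kdm6b fl/fl) and 2 Kdm6b-cKO libraries (Atoh1-Cre; Kdm6b fl/fl), each from an individual mouse. Both groups thus carried loxP-flanked alleles of Kdm6b, which encodes a demethylase of lysine 27 on histone H3, and only the cKO animals carried Cre, so the loss of Kdm6b and the presence of Cre cannot be told apart. Atoh1 drives that Cre in granule neuron precursors and their progeny. Cells that never expressed Atoh1, which the tissue also holds, should keep the gene. Which cell types lost it was not tested.

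Neurons release peptides and neurotrophins from dense-core vesicles, which bud from the trans-Golgi network already loaded with cargo, whereas small synaptic vesicles refill with glutamate or GABA at the terminal. Inside the maturing vesicle, prohormone convertases cut precursors after pairs of basic residues, carboxypeptidase E trims the exposed basic residues, and granins condense with the cargo. Golgi interneurons, Purkinje cells, granule neurons and other cerebellar cells express different subsets of this machinery, and in bulk tissue fewer cells of a type cannot be told apart from less RNA per cell.

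The libraries held 8811849 to 9892363 counts in genes. Kdm6b itself was at 154 and 154 CPM in WT, against 127 and 119 CPM in cKO (CPM are counts relative to library size, scaled by TMM), where the loxP sites remove the exons of the catalytic domain and leave the rest of the transcript to be counted (log2 fold change −0.33 with an SE of 0.0758, edgeR adjusted p = 0.0162). Its log2 fold change was −0.33 and −0.32 without WT 1 and WT 2, where the call was lost (edgeR adjusted p = 0.141 and 0.111). WT 1 was the only library with Y-linked transcripts (a sum of 233 CPM over 4 genes, against at most 0.672 CPM elsewhere). The fits without WT 1 are thus the ones that compare animals of the same sex. A fit with 1 library left out holds a lone library of 1 genotype and takes its spread from the other genotype. Calls kept or lost in such fits are therefore weak evidence. Ttr, the major transcript of the choroid plexus, was at 1.73 and 0.108 CPM in WT, but at 609 CPM in cKO 1 and 13.9 CPM in cKO 2, and the 9 choroid plexus markers summed to 36.9 and 38.3 CPM in WT and to 702 and 44.4 CPM in cKO, with 3 of the 6 tested called higher and 0 lower.

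The 10 genes spanned a wide range of levels, from among the most abundant transcripts of the tissue to one with few counts. Levels between genes were compared as RPKM, the scaled CPM per kilobase of exon, and the ranks are among the 16617 tested genes by mean RPKM over all 4 libraries. Cpe, the carboxypeptidase that trims basic residues, stood highest, at 321 ± 2.15 RPKM in WT and 296 ± 17.4 RPKM in cKO (mean ± SD, n = 2 each), rank 50. Chgb (chromogranin B, a bulk matrix protein of the vesicle core) followed at rank 100, with 205 ± 5.73 RPKM in WT, and Scg3 (secretogranin III, which tethers granin aggregates to the vesicle membrane) at rank 290, with 108 ± 1.37 RPKM. Scg5, which encodes 7B2, the chaperone that proPC2 needs to mature, was at 67.3 ± 1.16 RPKM in WT. These 4 genes together made up 82.9% and 83.0% of the summed RPKM of the 10 genes in WT 1 and WT 2, and 84.6% and 83.9% in cKO 1 and cKO 2.

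Below them stood Scg2 (secretogranin II, precursor of secretoneurin), Chga (chromogranin A) and Ptprn (IA-2, a phosphatase-like transmembrane protein of the vesicle membrane). Scg2 lay above Chga in both WT libraries (48.1 and 42.2 against 38.0 and 40.9 RPKM). It lay below Chga in both cKO libraries (36.6 and 37.1 against 39.6 and 37.2 RPKM), by very little in cKO 2. Ptprn was at 34.5 ± 0.531 RPKM in WT, below Chga there. Vgf, a neurotrophin-inducible precursor of several peptides, was at 13.4 ± 1.27 RPKM in WT, and Pcsk2, the convertase PC2, at 9.67 ± 0.827 RPKM. Pcsk1, the convertase PC1/3, was lowest, at 1.61 ± 0.149 RPKM in WT and rank 14061, and it rested on few counts, 89 and 78 in WT and 39 and 37 in cKO.

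**Figure D1:**
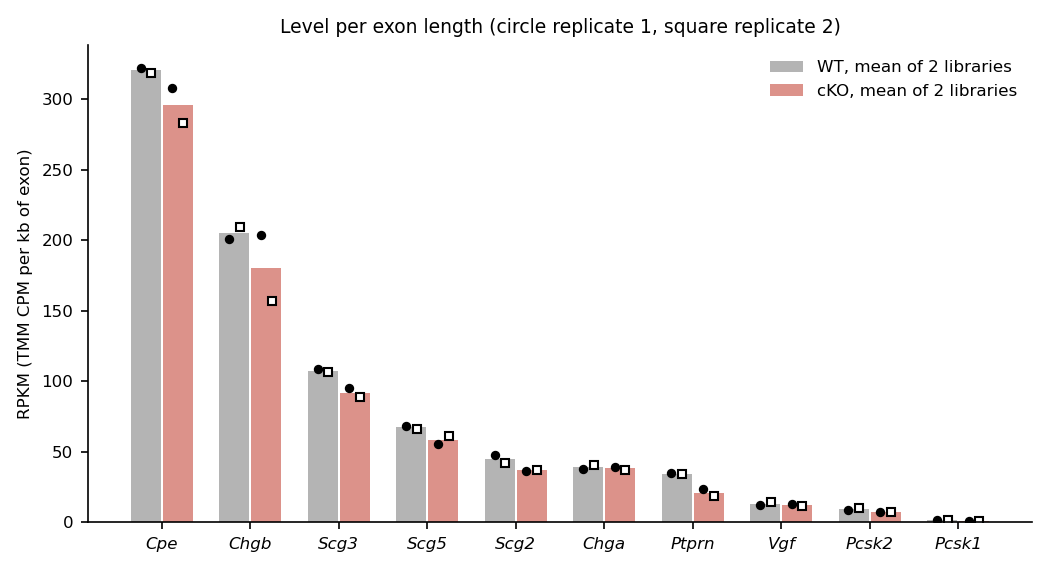
Level per exon length (RPKM, from TMM-scaled CPM) of the 10 genes in order of their mean, with bars at the group mean over 2 libraries (WT grey, cKO red), circles for replicate 1 and squares for replicate 2. Cpe is at 321 RPKM in WT and Pcsk1 at 1.61 RPKM, and the cKO bar is the lower of the pair for each gene.

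The promoters of these genes are shown because the cAMP response element, with the palindrome TGACGTCA and the half-site TGACG, is a well-known element of granin and convertase promoters. RefSeq promoter windows of 300 bases (GRCm38.p6, 250 before a start and 50 after) were matched by symbol for 8 of the 10 genes, not for Vgf and Cpe. Searched on both strands, the half-site lay in a window of all 8 genes, and the palindrome, which contains the half-site, in 3 of them (Chgb, Scg2 and Pcsk1). Of the 11498 tested genes with a window, 34.1% held the half-site and 3.48% the palindrome in at least 1 window, and over all 32851 windows the shares were 20.8% and 1.79%. The median GC content was 59.7% over the 9 windows of the 8 genes and 60.3% over the windows of tested genes. A match of letters is a description and not a bound site. Each line gives 30 bases, 5′ to 3′ on the strand of the gene, with the half-site or the palindrome in capitals (CGTCA is the half-site read on the other strand):
Pcsk1: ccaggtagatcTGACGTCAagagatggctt
Scg2: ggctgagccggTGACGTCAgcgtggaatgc
Chgb: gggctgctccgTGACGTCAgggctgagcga
Chga: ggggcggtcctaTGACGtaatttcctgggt
Scg3: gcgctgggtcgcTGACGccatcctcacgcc
Scg5: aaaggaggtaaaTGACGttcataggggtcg
Pcsk2: ctggcgggcgcgCGTCAcccgggctggcgc
Ptprn: gggtggagatgtCGTCAttgcacgcctgca

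Counted from the RefSeq start, the capitals begin at −78 in Pcsk1 (chr13:75089768-75089797, plus strand), −68 in Scg2 (chr1:79440076-79440105, minus strand) and −72 in Chgb (chr2:132781559-132781588, plus strand). The half-sites begin at −44 in Chga (chr12:102554885-102554914, plus strand), −30 in Scg3 (chr9:75684069-75684098, minus strand), −34 in Pcsk2 (chr2:143546087-143546116, plus strand) and −80 in Ptprn (chr1:75264271-75264300, minus strand). In Scg5 the one shown begins at −175 (chr2:113829249-113829278, minus strand). More than 1 site lay in the window of 3 genes, with further half-sites at 20 and 41 after the start in Scg5, at −117 in Ptprn and at −50 in Pcsk1. GENCODE M21 places the runs of Scg2 and Chgb inside an annotated exon, since it starts these genes further upstream, and the other 6 runs lie in no exon. Of the genes that hold the palindrome, Pcsk1 passed the test below, and Scg2 and Chgb did not. Of those that hold half-sites alone, Ptprn and Pcsk2 passed, and Chga, Scg3 and Scg5 did not. A link between sites and falls was not tested. The pair of sites in Pcsk1 is shown because this gene had the largest fold of the 10. It lies in the 219 bases that precede the annotated exon (chr13:75089607-75089825, plus strand), with both in capitals:
Pcsk1 upstream: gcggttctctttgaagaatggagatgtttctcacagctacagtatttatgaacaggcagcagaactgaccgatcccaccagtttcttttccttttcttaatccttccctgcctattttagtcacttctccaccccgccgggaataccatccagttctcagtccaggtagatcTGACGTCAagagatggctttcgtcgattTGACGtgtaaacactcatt

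The central comparison was cKO against WT for each gene. Ptprn, Pcsk2 and Pcsk1 fell in Kdm6b-cKO cerebellum, and none of the 6 granin genes passed the test. The 3 of 10 that fell stand beside 2.17% of all 16617 tested genes that fell (edgeR's quasi-likelihood test, Benjamini-Hochberg adjusted p under 0.05), and 0 of 10 rose, beside 1.87% of all tested genes. All 10 log2 fold changes were below 0, as were 49.3% of those of all tested genes, and their median was −0.22 against 0.0036 over all tested genes. In 7 of the 10 genes both cKO libraries lay below both WT libraries, which held for 23.2% of all tested genes (46.4% were without overlap in either direction). Because the genes were chosen with earlier results known, these shares describe the 10 genes and are not independent evidence. Without cKO 1 or without cKO 2 none of the 10 passed, and neither did any other gene. The 10 genes together summed to 2288 and 2298 CPM in WT and to 2110 and 1882 CPM in cKO 1 and cKO 2.

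**Figure D2:**
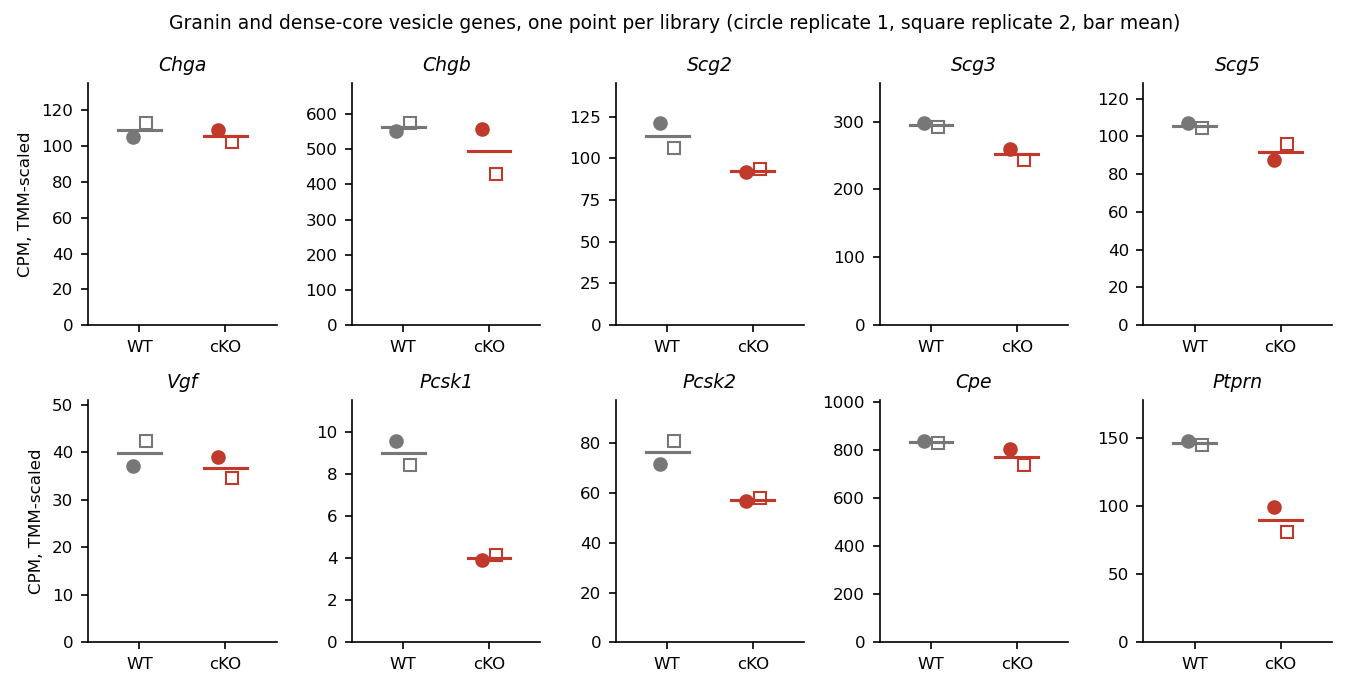
TMM-scaled CPM of each gene on a linear axis from 0, with 1 point per library (circles replicate 1, squares replicate 2; WT grey, cKO red) and a bar at the group mean. Pcsk1 sits at 9.60 and 8.42 CPM in WT, against 3.93 and 4.14 CPM in cKO, whereas the points of Chga, Vgf and Chgb overlap between the groups.

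Ptprn (ENSMUSG00000026204.15, GRCm38 chromosome 1, 75247027 to 75264502, minus strand) had the smallest p of the 10 genes. Its level was 148 and 145 CPM in WT and 99.2 and 80.8 CPM in cKO. Both cKO libraries lay far below the WT pair, and cKO 2 was the lower. Ptprn fell by 38.5% (log2 fold change −0.70 with an SE of 0.089, edgeR adjusted p = 5.59e-05). Its log2 fold change was −0.69 without WT 1, between animals of the same sex. It was −0.86 without cKO 1 and −0.56 without cKO 2, where the call was lost with all others (edgeR adjusted p = 0.237 and 0.493). The antisense gene Gm28294, named here after its value was seen, shares 189 bp of exon with Ptprn, or 4.45% of the exon length of Ptprn. Gm28294 was at 28.3 and 23.8 CPM in WT and 16.8 and 14.7 CPM in cKO (log2 fold change −0.72 with an SE of 0.151, edgeR adjusted p = 0.00743), and no source used here states whether the counting used strand, so reads of the pair may not be separable.

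Pcsk1 (ENSMUSG00000021587.5, chromosome 13, 75089826 to 75134861, plus strand) showed the largest fold of the 10 genes. PC1/3 acts early in the secretory pathway and makes the intermediate cuts of many propeptides. It was at 9.60 and 8.42 CPM in WT, against 3.93 and 4.14 CPM in cKO, groups that do not overlap, each with libraries close to each other. The level fell by 55.1% (log2 fold change −1.16 with an SE of 0.254, 95% confidence interval −1.68 to −0.63, edgeR adjusted p = 0.0104). The call was lost without WT 1 (log2 fold change −1.06, edgeR adjusted p = 0.0997) and in a fit of unfiltered genes (edgeR adjusted p = 0.0520). Without cKO 1 and cKO 2 the log2 fold change was −1.12 and −1.19 (edgeR adjusted p = 0.293 and 0.493).

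Pcsk2 (ENSMUSG00000027419.9, chromosome 2, 143546156 to 143816285, plus strand) encodes PC2, which acts later and completes the cuts that release mature peptides. Its level was 71.8 and 81.1 CPM in WT and 56.6 and 57.9 CPM in cKO. The cKO libraries were close to each other and below both WT libraries, and the level fell by 25.1% (log2 fold change −0.42 with an SE of 0.0915, edgeR adjusted p = 0.0105). The call was lost without WT 2 (log2 fold change −0.33) and in a fit of unfiltered genes (edgeR adjusted p = 0.0730). Without WT 1 the log2 fold change was −0.50. Without cKO 1 and cKO 2 the log2 fold change was −0.40 and −0.43 (edgeR adjusted p = 0.326 and 0.493). The antisense genes Pcsk2os1 and Pcsk2os2 share 3.29% and 1.25% of the exon length of Pcsk2. Their log2 fold changes were −0.35 and −0.49 (edgeR adjusted p = 0.340 and 0.0964). Whether the counting used strand is not stated, so here too reads of the genes may not be separable.

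Cpe (ENSMUSG00000037852.8, chromosome 8, 64592542 to 64693054, minus strand), the third processing enzyme, was at 840.3 and 832 CPM in WT, against 804 and 740 CPM in cKO. Both cKO libraries were lower, by a small margin. The log2 fold change was −0.12 (95% confidence interval −0.26 to 0.030, edgeR adjusted p = 0.446). That interval lies above the fitted values of Pcsk2, Ptprn and Pcsk1. It overlaps the interval of Pcsk2 (−0.61 to −0.23), and no test was made of the difference.

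The 6 granin genes had log2 fold changes between −0.29 and −0.039, and 0 of them passed in edgeR, DESeq2 or limma-voom. At an unadjusted p under 0.05, 3, 2 and 4 of them were lower in these 3 tests. Of all 16617 tested genes, 2710, 1440 and 2710 stood at that level in either direction. Scg2 (ENSMUSG00000050711.7, chromosome 1, 79434669 to 79440120, minus strand) came nearest, at 121 and 106 CPM in WT and 92.0 and 93.3 CPM in cKO. Its cKO libraries were nearly equal and lay below both WT libraries. The log2 fold change was −0.29 (with an SE of 0.0832, edgeR adjusted p = 0.0509), it was −0.20 without WT 1 and −0.38 without WT 2, and the gene passed without WT 2 (edgeR adjusted p = 0.0402) and with X and Y genes left out (edgeR adjusted p = 0.0493).

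Scg3 (ENSMUSG00000032181.7, chromosome 9, 75643189 to 75684056, minus strand) was at 297 and 292 CPM in WT, against 260.2 and 243 CPM in cKO. The groups did not overlap (log2 fold change −0.23 with an SE of 0.0684, edgeR adjusted p = 0.0668). Scg5 (ENSMUSG00000023236.7, chromosome 2, 113776362 to 113829121, minus strand) was at 107 and 104 CPM in WT and 87.5 and 95.9 CPM in cKO, again without overlap (log2 fold change −0.20 with an SE of 0.081, edgeR adjusted p = 0.192). For both genes the 95% confidence interval of the log2 fold change lay below 0 before correction for the number of genes tested, at −0.37 to −0.085 and −0.37 to −0.036.

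Chgb, Chga and Vgf overlapped between the genotypes. Chgb (ENSMUSG00000027350.8, chromosome 2, 132781278 to 132795079, plus strand) was at 551 and 573 CPM in WT, at 558 CPM in cKO 1 and at 430 CPM in cKO 2. Only cKO 2 stood apart, and the log2 fold change of −0.19 (edgeR adjusted p = 0.310) was −0.0084 without cKO 2 and −0.39 without cKO 1. Chga (ENSMUSG00000021194.6, chromosome 12, 102554969 to 102565028, plus strand) was at 105 and 113 CPM in WT, against 109 and 102 CPM in cKO. Its log2 fold change was −0.039 with a 95% confidence interval of −0.21 to 0.13 (edgeR adjusted p = 0.871), and its sign turned without WT 2 or without cKO 2, where it was 0.015 and 0.0068. Vgf (ENSMUSG00000037428.14, chromosome 5, 137026392 to 137033351, plus strand) was at 37.1 and 42.4 CPM in WT, against 38.9 and 34.5 CPM in cKO (log2 fold change −0.11, 95% confidence interval −0.36 to 0.13, edgeR adjusted p = 0.703).

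**Figure D3:**
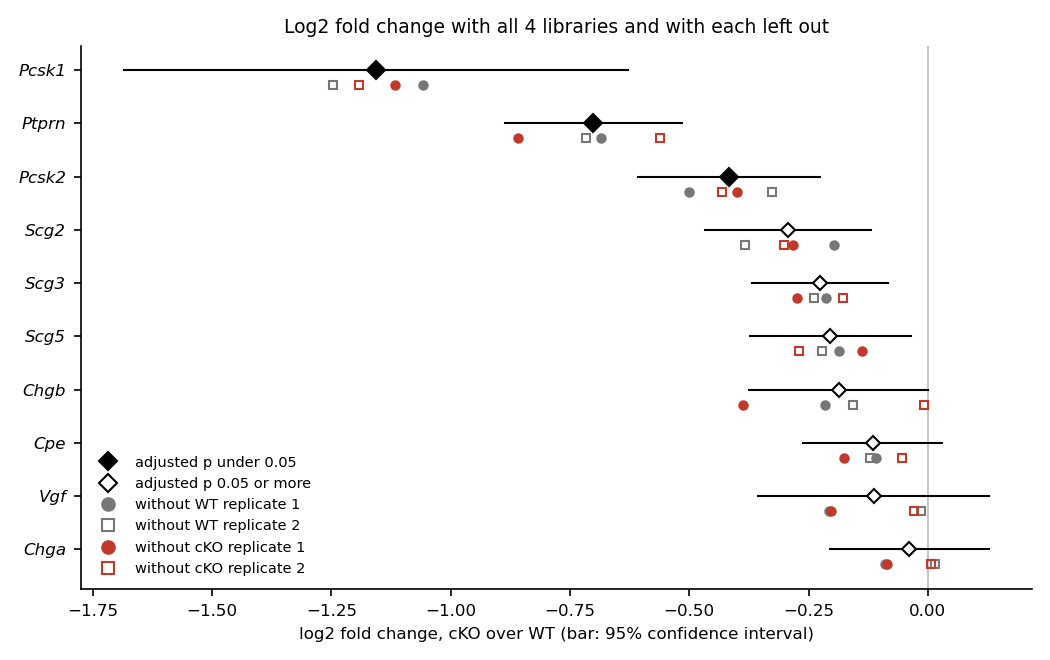
Log2 fold change (cKO over WT) of the 10 genes in edgeR, as diamonds with 95% confidence intervals (filled for adjusted p under 0.05), and below each the value with 1 library left out (WT grey, cKO red; circles without replicate 1, squares without replicate 2). Pcsk1, Ptprn and Pcsk2 stay below −0.3 with any library left out, and Chgb ranges from −0.39 without cKO 1 to −0.0084 without cKO 2.

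The other genes of the regulated secretory pathway were described from 3 lists, which exclude the 10 genes, beside 4.04% of all tested genes called in either direction. Of 21 tested genes of precursor processing and sorting, 2 fell, 0 rose and 19 did not pass, with a median log2 fold change of −0.088. Pcsk1n, which encodes proSAAS, an inhibitor of PC1/3, was the most abundant of them at 94.8 RPKM and fell from 233 and 242 CPM in WT to 175 and 181 CPM in cKO (log2 fold change −0.42 with an SE of 0.0699, edgeR adjusted p = 0.00101). Its log2 fold change was −0.45 without WT 1 and −0.39 without WT 2. Sorcs2, a sorting receptor of the VPS10 family, fell from 23.6 and 20.9 CPM to 13.3 and 16.6 CPM (log2 fold change −0.58 with an SE of 0.159, edgeR adjusted p = 0.0420), and its call was lost without WT 1 (edgeR adjusted p = 0.270) and by DESeq2, with an adjusted p of 0.182. The subunits of the vesicular proton pump Atp6ap1 and Atp6ap2 had log2 fold changes of −0.088 and −0.17 (edgeR adjusted p = 0.572 and 0.274).

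Of 32 tested genes of vesicle biogenesis and release, 5 fell, 1 rose and 26 did not pass, and the median log2 fold change was −0.073. Ptprn2 (phogrin), the close relative of Ptprn on the vesicle membrane, fell from 94.9 and 96.3 CPM to 74.8 and 75.2 CPM (log2 fold change −0.35 with an SE of 0.080, edgeR adjusted p = 0.0138). Its fold was the smaller of the pair, with no test made of the difference, and its call was lost in DESeq2 (adjusted p = 0.0655) and without WT 1 or WT 2 (edgeR adjusted p = 0.0776 and 0.103). The SNARE gene Snap25, which serves synaptic and dense-core vesicles alike, fell from 1218 and 1221 CPM to 1010.4 and 934 CPM (log2 fold change −0.33 with an SE of 0.0678, edgeR adjusted p = 0.00704).

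Cadps2, a priming factor of dense-core vesicles that cerebellar granule neurons express strongly, was the 1 gene of these lists that rose, from 486 and 520 CPM in WT to 630 and 597 CPM in cKO. The groups did not overlap (log2 fold change 0.29 with an SE of 0.0705, edgeR adjusted p = 0.0234), and the call was lost without WT 1 (log2 fold change 0.24, edgeR adjusted p = 0.237). Stxbp5l (tomosyn-2, an inhibitor of fusion) fell from 117 and 105 to 92.5 and 86.7 CPM (log2 fold change −0.31, edgeR adjusted p = 0.0404), and its call was lost without WT 1 (edgeR adjusted p = 0.448) and by DESeq2, with an adjusted p of 0.149. Slc18a2, the vesicular monoamine transporter, was at 9.82 and 5.18 CPM in WT, against 2.62 and 3.92 CPM in cKO. Its log2 fold change of −1.20 (edgeR adjusted p = 0.0420) was −0.67 without WT 1, where the call was lost (edgeR adjusted p = 0.662), as it was in limma-voom, with an adjusted p of 0.0695. Among the most abundant genes of this list, Vamp2 and Kif1a had log2 fold changes of −0.12 and −0.052 (edgeR adjusted p = 0.412 and 0.775).

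Of 36 listed genes of neuropeptides, neurotrophins and other secreted cargo, 18 had enough counts to be tested, 3 of these fell, 0 rose and 15 did not pass, with a median log2 fold change of −0.17. Penk, the precursor of the enkephalins, fell from 73.8 and 68.6 CPM in WT to 41.4 and 38.6 CPM in cKO (log2 fold change −0.83 with an SE of 0.0977, edgeR adjusted p = 2.50e-05). The fall of Penk kept its call in DESeq2 and limma-voom, and its log2 fold change was −0.77 without WT 1 and −0.88 without WT 2. Sst, the somatostatin precursor, fell from 7.12 and 6.69 CPM to 3.53 and 1.79 CPM (log2 fold change −1.36 with an SE of 0.325, edgeR adjusted p = 0.0199), and its call was lost without WT 1 (edgeR adjusted p = 0.0833). Cbln3, a secreted partner of cerebellin-1 from granule neurons, fell from 989 and 1027 CPM to 868 and 785 CPM (log2 fold change −0.29, edgeR adjusted p = 0.0247), a call lost without WT 2 (edgeR adjusted p = 0.0760). Cbln1, the synapse organiser itself, had a log2 fold change of −0.16 (edgeR adjusted p = 0.255). Ucn, Avp and Nmu had 0 counts in all 4 libraries.

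**Figure D4:**
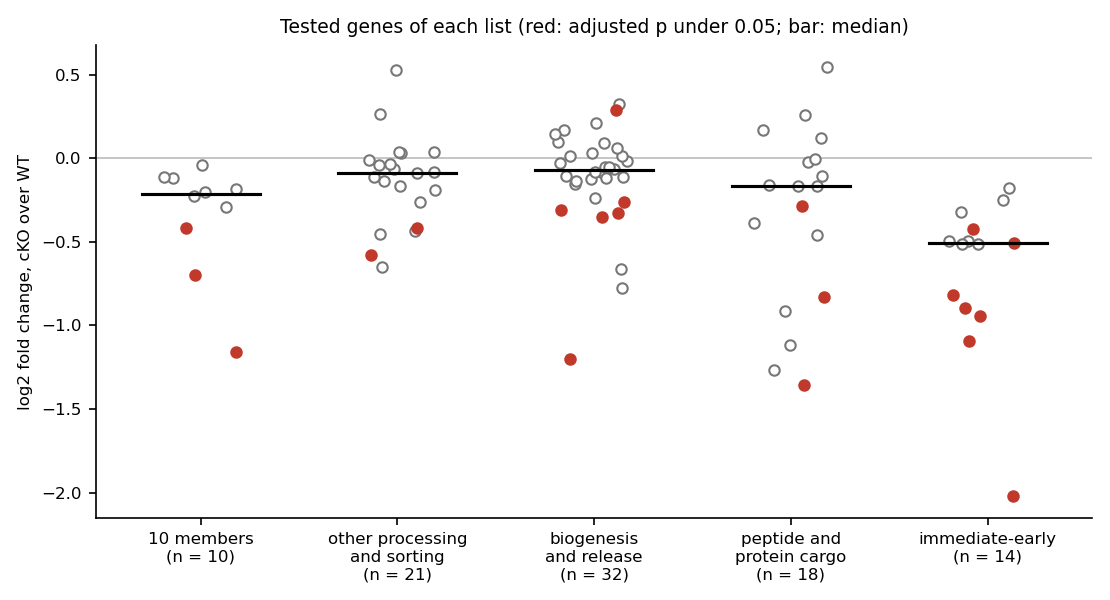
Log2 fold change (cKO over WT) of every tested gene of each list, 1 point per gene, with genes past an adjusted p of 0.05 in edgeR in red and a bar at the list median. The medians are −0.22 for the 10 genes, −0.088 for other processing and sorting genes, −0.073 for biogenesis and release, −0.17 for cargo and −0.51 for immediate-early genes.

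Several granin and convertase genes respond to neuronal activity in other settings, so immediate-early genes were set beside them. Of 14 tested immediate-early genes 7 fell and 0 rose, beside 2.17% and 1.87% of all tested genes. Their median log2 fold change was −0.51, against 0.0036 over all tested genes. The 17 listed genes summed to 374 and 272 CPM in WT and to 213 and 203 CPM in cKO. Jun was at 65.3 and 66.0 CPM in WT, against 48.8 and 49.1 CPM in cKO (log2 fold change −0.42, edgeR adjusted p = 0.0105), a call lost without WT 1 or WT 2 (edgeR adjusted p = 0.0547 and 0.0562). Fos stood at 37.0 CPM in the first WT library and at 8.96 CPM in the other, with 4.13 and 7.28 CPM in cKO (log2 fold change −2.02, edgeR adjusted p = 0.00570). Without WT 1 the log2 fold change of Fos was −0.66 (edgeR adjusted p = 0.429) and 1 of these genes, Nr4a3, passed. Fos also missed the threshold in DESeq2 and limma-voom with all libraries (adjusted p of 0.422 and 0.0633). For the 3 called members, Ptprn, Pcsk2 and Pcsk1, the log2 fold changes were −0.69, −0.50 and −1.06 without WT 1. With all libraries they were −0.70, −0.42 and −1.16. Nr4a1, Nr4a3 and Egr4 also fell (log2 fold change −0.94, −1.09 and −0.82), with the calls of Nr4a1 and Egr4 lost without WT 1 and that of Nr4a3 lost without WT 2 (edgeR adjusted p = 0.350, 0.0997 and 0.180). Dusp1 fell with overlapping groups (62.5 and 24.6 CPM in WT, 20.6 and 26.4 CPM in cKO) and had a log2 fold change of −0.071 without WT 1, and Ier2 did not pass (edgeR adjusted p = 0.147).

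Marker genes of neuron types moved between the genotypes beside the members. The counts of each marker list stand beside 2.17% of all tested genes that fell and 1.87% that rose. Of 9 markers of mature granule neurons 7 fell and 0 rose, and the list summed to 5963 and 6139 CPM in WT and to 5142 and 4473 CPM in cKO. Of 11 markers of newborn neurons 8 rose and 0 fell, with sums of 2762 and 2907 CPM in WT and 3300.1 and 3877 CPM in cKO. Of 9 markers of Golgi and molecular layer interneurons 0 passed, and the list summed to 1437 and 1445 CPM in WT and to 1330 and 1283 CPM in cKO. Of 8 Purkinje cell markers 2 fell and 1 rose (7280 and 7133 CPM in WT, 6658 and 6148 CPM in cKO), and of 5 unipolar brush cell markers 2 fell and 0 rose (794 and 805 CPM in WT, 705 and 656 CPM in cKO). No gene of these 5 lists was at 0 in all libraries.

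Of 8 astrocyte and Bergmann glia markers 4 fell and 0 rose (4232 and 4179 CPM in WT, 3756 and 3644 CPM in cKO), and of 9 oligodendrocyte markers 3 fell and 0 rose (9207 and 8770 CPM in WT, 7943 and 8026 CPM in cKO). The 12 markers of cerebellar nuclei and brainstem neurons summed to 76.9 and 49.8 CPM in WT and 52.6 and 61.5 CPM in cKO, with Slc6a4 and Hoxb5 among those at 0 in all libraries, and of the 4 that were tested 1 fell. The pituitary is rich in the genes described here, and 7 of its hormone genes summed to 11.2 and 7.34 CPM in WT and 11.7 and 9.19 CPM in cKO, with 0 of the 2 tested, Tshb and Pomc, called. Of these 7 genes, Gh, Prl, Fshb and Cga were at 0 counts in all 4 libraries, and Tshb, Lhb and Pomc were not. The part of these cell types, of the immediate-early genes and of the choroid plexus transcripts in the results for the 10 genes was not tested.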

How the data were processed

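Cerebellar tissue of 2 WT and 2 Kdm6b-cKO mice (postnatal day 14) was sequenced as poly(A)-enriched paired-end reads of 150 bp. Per the methods and the submitters' processing notes, the authors used Trimmomatic 0.38 for trimming, STAR 2.7.2b for alignment to GRCm38 and HTSeq for counting over exons. The deposited files give raw counts for each gene symbol, and entries that name no gene were left out of library sizes and tests (genes took 39.0% to 40.5% of entries). Counting this way drops reads shared between genes. Groups and replicate numbers came from sample titles, although the descriptions of both samples titled replicate 2 carry the number 1.

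From these counts, 16617 genes were kept with filterByExpr, scaled by TMM (factors 0.986 to 1.02) and tested with edgeR 4.0.16 in R 4.3.3 (glmQLFit, glmQLFTest, two-sided; design of genotype alone), with Benjamini-Hochberg adjustment over all tested genes and a threshold of 0.05. SEs were derived from the F statistic. Alternatives were other scalings and filters, DESeq2 1.42.0, limma-voom (limma 3.58.1), a replicate block, X and Y genes left out, and each library left out. Replicate libraries were not duplicates of one another (chi-square over its degrees of freedom, 3.51 in WT and 3.82 in cKO). Gene identifiers, positions and exon lengths were matched by symbol from GENCODE M21 (GRCm38), which may differ from the GENCODE release used for counting. Named beyond the 10 genes were Kdm6b, Ttr and, per list, up to 5 called genes of smallest p (1 if none was called), and the 3 with the highest RPKM. The genes and lists were chosen with earlier results of these data known. The depth limits precision most for Pcsk1.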

Additional observations from a re-analysis of the deposited data

How the results depend on the processing

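All 10 genes kept a log2 fold change below 0 under every alternative except Chga, whose values with 1 library left out ran from −0.090 to 0.015 (0.015 without WT 2 and 0.0068 without cKO 2). The number of the 10 that fell was 3, and it was 5 with upper-quartile scaling, where Scg2 and Scg3 joined, 4 with X and Y genes left out, 2 in DESeq2, which gave no adjusted p for Pcsk1, and 1, Ptprn, with no filter on low counts. With 1 library left out it was 0 to 3, and it was 0 without cKO 1 or cKO 2, where edgeR called no gene at all (smallest adjusted p = 0.237 and 0.443, and 2315 and 1718 at an unadjusted p under 0.05, among them 5 and 5 of the 10), so these lost calls say little of any gene. In those fits the log2 fold changes of Pcsk1 were −1.12 and −1.19, of Pcsk2 −0.40 and −0.43 and of Ptprn −0.86 and −0.56. In every fit with 1 library left out, the spread of the lone library was taken from the other genotype. Kept calls therefore say little as well.

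Over all genes, 310 rose and 361 fell. The counts were 71 and 106 with no filter on low counts, 137 and 183 in DESeq2, and 0 to 263 and 0 to 244 with 1 library left out. Lower genes made up 53.8% of calls, 40.2% with library size alone and 63.0% with upper-quartile scaling. Of the 3 pathway lists together 1 gene rose and 10 fell. With no filter these counts were 0 and 3 (edgeR, with 4 higher at an unadjusted p under 0.05), with library size alone 2 rose, in DESeq2 4 fell, and with 1 library left out 0 to 1 rose and 0 to 7 fell. Of immediate-early genes 7 fell, and 0 did with no filter (9 at an unadjusted p under 0.05), 2 in DESeq2 and 0 to 6 with 1 library left out. With no filter, 2789 of all 28952 genes stood at an unadjusted p under 0.05 in either direction. The list counts were recomputed as alternatives chosen after seeing the data. The cause of these differences was not tested.

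The replicate numbers, which titles and descriptions give differently for replicate 2, were not shown to pair the samples (across genes the replicate differences of WT and cKO correlated at r = 0.042). A fit with the replicate block called 549 higher and 581 lower genes, 5 of the 10 genes as lower (Scg2 and Scg3 joined, edgeR adjusted p = 0.0101 and 0.0154) and 2 pathway genes as higher, and it changed no other call among the 10. Depth limits the low genes: Pcsk1 had 37 to 89 counts a library.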

Other observations

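Ratios within a library do not depend on the scaling between libraries, and they are given here as values with no test. The RPKM ratio of Pcsk1 to Pcsk2 was 0.189 and 0.147 in WT and 0.0980 and 0.101 in cKO, so Pcsk1 was lower relative to Pcsk2 in both cKO libraries. The ratio of Pcsk1n, the inhibitor, to Pcsk1, its target, was 62.1 and 73.5 in WT and 114 and 112 in cKO. Scg5, the chaperone, stood at 7.50 and 6.48 times the RPKM of Pcsk2, its client, in WT and at 7.79 and 8.35 times in cKO. The ratio of Ptprn to Ptprn2 was 3.16 and 3.05 in WT and 2.68 and 2.18 in cKO. The ratio of Chgb to Chga was 5.29 and 5.12 in WT and 5.15 in cKO 1, and 4.22 in cKO 2 alone.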
